A study of Mus musculus with 2 samples.

Results

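The 10 genes described here encode chains of MHC class I molecules, proteins that supply or load their peptides, and a regulator of class I genes. They were taken from the matrices by symbol, 10 of 32285 genes. They are H2-K1 and H2-D1 (classical class I heavy chains), B2m (the light chain, beta-2 microglobulin), Tap1 and Tap2 (the peptide transporter), Tapbp (tapasin), Psmb8, Psmb9 and Psmb10 (the catalytic subunits of the immunoproteasome), and Nlrc5 (a transactivator of class I genes). Each was described in every lung cell class that could be named and compared between nanoparticle (NP) and saline treatment. All 10 were found in both matrices.

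The lungs came from female BALB/cJ mice, 12 weeks old, that carried tumors of 4T1, a mouse mammary carcinoma line that metastasizes to the lung, after inoculation of 100000 cells. Intravenous saline or intravenous cargo-free PLG (poly(lactide-co-glycolide)) NPs were given from day 1 at intervals of 3 days, and lungs were taken on day 14, so that the saline controls carried the tumor as well. Lungs of each condition were pooled (4 mice per pool by the labels, while the study's methods give another number) and made 1 10x Genomics library. With 1 library per condition there was no replicate and no test: every interval below is a 95% interval that covers counting error only, and animal, library and treatment cannot be told apart.

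Cells display fragments of their own proteins on MHC class I molecules, where CD8+ T cells read them. The proteasome cuts proteins into peptides, the TAP transporter carries the peptides into the endoplasmic reticulum, and tapasin holds the empty class I molecule beside the transporter until a peptide binds. Interferons raise most of these genes, in part through IRF1, and replace the catalytic subunits of the standard proteasome by those of the immunoproteasome, while NLRC5 acts on class I promoters.

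On the genome, 7 members lie on chromosome 17, most of them within the major histocompatibility complex (GRCm38, the build named mm10 in the submitters' processing notes; GENCODE vM21 gene intervals). H2-K1 spans chr17:33996017-34000347 on the minus strand and H2-D1 chr17:35262730-35267499 on the plus strand. Tapbp lies at chr17:33915899-33929292. Psmb9 (chr17:34181987-34187764, minus strand) overlaps the start of Tap1 (chr17:34187553-34197225, plus strand), and Psmb8 (chr17:34197721-34201454) and Tap2 (chr17:34203527-34216321) follow on the plus strand. B2m lies on chromosome 2 (chr2:122147686-122153083), and Psmb10 (chr8:105935735-105938444) and Nlrc5 (chr8:94434356-94527272) on chromosome 8. The heavy chain genes share long stretches with each other and with the H2-Q and H2-T genes, and BALB/c mice carry another class I haplotype than the C57BL/6J reference, so how reads were divided among H2 genes is uncertain. The strand setting of the counting is not given in the sources used here, so reads from the overlap of Psmb9 and Tap1 cannot be assigned with certainty.

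Promoters of 8 of the 10 members were matched in RefSeq (GRCm38.p6), each as the 250 bases before an annotated start, and 5 are printed because they hold the interferon motifs, serve 2 members at once, or belong to the 2 heavy chains whose NP to saline ratios are set side by side below. Capitals mark matches, on either strand, to the ISRE core (a pair of GAAA runs with 2 free bases between them), the GAS motif TTCNNNGAA or the CCAAT box (CCAAT, or ATTGG on the other strand). No match overlapped another of a different motif.
B2m, chr2:122147437-122147686, plus strand: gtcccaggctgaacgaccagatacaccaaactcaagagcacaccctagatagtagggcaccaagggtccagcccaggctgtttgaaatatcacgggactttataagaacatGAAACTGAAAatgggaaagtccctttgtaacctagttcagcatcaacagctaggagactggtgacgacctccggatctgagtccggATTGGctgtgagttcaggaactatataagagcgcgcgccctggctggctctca
Psmb8, chr17:34197945-34198194, plus strand: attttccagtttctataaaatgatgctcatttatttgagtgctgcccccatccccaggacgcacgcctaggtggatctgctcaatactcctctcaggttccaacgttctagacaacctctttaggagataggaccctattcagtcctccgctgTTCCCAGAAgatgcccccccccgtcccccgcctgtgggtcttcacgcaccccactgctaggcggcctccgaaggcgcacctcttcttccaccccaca
Tap1, chr17:34187306-34187555, plus strand: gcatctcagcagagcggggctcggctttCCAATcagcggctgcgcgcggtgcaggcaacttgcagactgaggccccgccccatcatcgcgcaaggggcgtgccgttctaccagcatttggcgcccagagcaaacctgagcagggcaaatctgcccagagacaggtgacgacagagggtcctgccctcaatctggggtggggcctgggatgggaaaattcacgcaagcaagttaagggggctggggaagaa
H2-K1, chr17:34000348-34000597, minus strand: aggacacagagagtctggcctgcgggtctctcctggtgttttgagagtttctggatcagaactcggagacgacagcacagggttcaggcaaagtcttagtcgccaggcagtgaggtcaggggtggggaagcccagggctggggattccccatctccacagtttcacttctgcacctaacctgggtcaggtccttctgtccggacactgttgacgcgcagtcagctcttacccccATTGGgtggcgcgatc
H2-D1, chr17:35262844-35263093, plus strand: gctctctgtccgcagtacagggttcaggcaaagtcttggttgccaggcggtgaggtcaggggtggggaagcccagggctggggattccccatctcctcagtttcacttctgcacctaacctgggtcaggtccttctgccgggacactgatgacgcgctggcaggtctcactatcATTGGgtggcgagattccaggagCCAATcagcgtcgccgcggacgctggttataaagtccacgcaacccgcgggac
The ISRE core was matched once among the members, in B2m at positions -139 to -130 from the start, and 2.98% of 32851 mouse promoter windows of this length held it. The palindromic GAS motif was matched in Psmb8 at -97 to -89, and 7.02% of windows held one. The CCAAT box was matched in H2-K1, H2-D1, B2m, Tap1, Tapbp and Psmb9, against 33.8% of windows. H2-K1 has another annotated start close by, whose window (chr17:34000334-34000583) is not printed. That window held CCAAT box matches at -30 to -26 and at -6 to -2, while the printed window held a match at -16 to -12 only. The Tap1 window shares 225 bases with that of Psmb9, which is read in the opposite direction. Several RefSeq starts, among them that of Psmb10, lie inside the gene intervals of GENCODE. The whole windows of H2-D1, Tapbp, Psmb8 and Psmb9 do so, and these windows may not lie before the first start of the gene. A match is a run of letters and not a measured binding site, and the searched letters allow no mismatch. A window without a match, such as those of H2-K1 and H2-D1 for the ISRE core, is therefore not shown to lack an interferon-responsive element.

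Barcodes were kept as cells from 500 to 5000 detected genes and with a mitochondrial share of UMIs (unique molecular identifiers, 1 per captured transcript) below 7.5%. After this, 8662 saline and 8333 NP cells remained, with 21 barcodes in both libraries. The whole libraries held 91168129 saline and 90081747 NP UMIs, and kept cells had medians of 6474.5 and 6008 UMIs. Cells of both libraries were clustered together without the members, and clusters that met the marker lists were joined into 17 classes, 10 of them with at least 50 cells in each library. The remaining clusters, with 283 saline and 402 NP cells, were left unnamed and are not described as classes. Among them was a cluster of 42 saline and 50 NP cells that scored highest for conventional dendritic cells, so that cell type has no class here. Class names here mean resemblance by markers and were rebuilt without the authors' labels. Lung epithelial, capillary and alveolar macrophage markers were present, as the tissue label implies. A level is the UMIs of a gene per 1000000 UMIs of its class (CPM), compared only within a gene, and a ratio is the log2 of the NP level over the saline level. A gene was counted as measured in a class with at least 50 UMIs over both libraries, and as higher or lower from a 1.5-fold difference (0.58 on the log2 scale). This limit is on the sum, so a gene can pass it through its count in 1 library. How many of all genes had an interval above 0 was not counted, so counts of such intervals carry no background. Shares of all genes past the mark are given for whole classes in the main setting, and not for single clusters or most other settings.

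By the pooled values of whole classes, the members were higher in NP cells mainly in neutrophils and capillary endothelium. They were moderately higher in monocytes, and differed little in alveolar macrophages and T cells. Within clusters, neutrophils did not stand above classical monocytes. The median member ratio ran from 0.19 to 0.65 over the neutrophil clusters and from 0.30 to 0.63 over the classical monocyte clusters. They were also higher in mural cells, where 24.2% of all measured genes were higher too. In neutrophils 7 of 10 members were at least 1.5-fold higher and none was lower, where 5.98% of 9536 genes were higher and 7.93% were lower by that fold. In general capillary endothelium 8 of 10 were higher and none was lower, against 4.22% and 6.12% of 9417 genes. In alveolar macrophages none of 9 measured members was higher or lower, against 1.87% of 8242 genes that were higher and 2.95% that were lower. The median ratio of the members was 0.95 in neutrophils, 0.88 in general capillary endothelium and 0.08 in alveolar macrophages, while the median gene with at least 200 UMIs stood at -0.13, -0.05 and -0.02. When ratios were taken relative to the median gene, 9 of 10 members were past 1.5-fold in neutrophils, against 7.64% of genes that were higher and 4.59% that were lower on that scale. The median UMIs per cell were 6043.5 in saline and 5224 in NP neutrophils, 2840 and 2811 in general capillary endothelium, and 17502 and 19588 in alveolar macrophages.

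**Figure D1:**
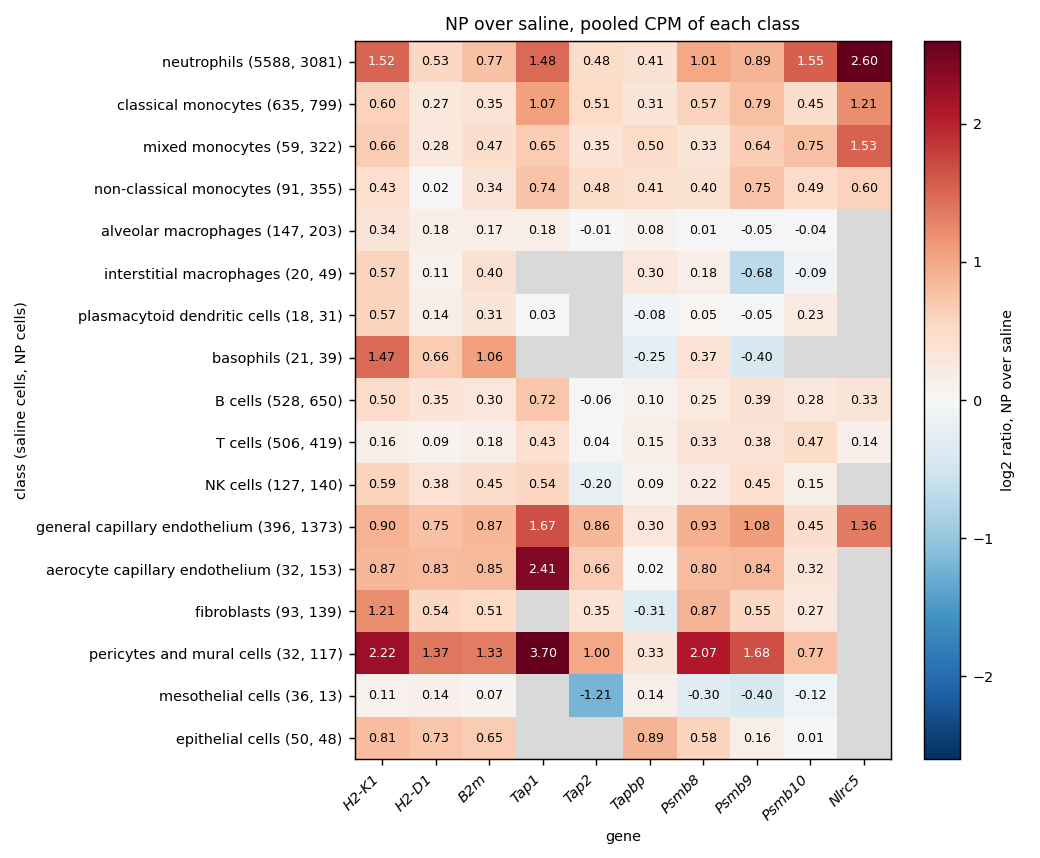
Log2 ratio of pooled CPM, NP over saline, for each of the 10 members (columns) in each of the 17 classes (cell numbers in brackets, saline first). Gray cells had under 50 UMIs over both libraries. Red cells, higher in NP, fill the neutrophil, capillary endothelium and pericyte lines, and the alveolar macrophage line runs from -0.05 to 0.34.

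The heavy chain H2-K1 differed more than H2-D1 in neutrophils. H2-K1 stood at 133 CPM (129.9 to 136) in saline and 382 CPM (374 to 390) in NP neutrophils, a ratio of 1.52 (1.47 to 1.57). H2-D1 stood at 2500 CPM and 3612 CPM, a ratio of 0.53 (0.52 to 0.54). Thus the NP level was above the saline level for both, while H2-D1 lay under the 1.5-fold mark. In general capillary endothelium H2-K1 went from 2435 to 4543 CPM (0.90, 0.85 to 0.95) and H2-D1 from 6515 to 10994 CPM (0.75, 0.72 to 0.79), so that the gap between the 2 heavy chains was smaller there. The interval of H2-K1 lay above 0 in 16 of 17 classes, the exception being mesothelial cells (0.11, -0.15 to 0.36), and that of H2-D1 in 14.

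Neutrophils had the lowest H2-K1 level of the 17 classes in both libraries. In saline cells the order ran from aerocyte capillary endothelium (3121 CPM) and general capillary endothelium (2435 CPM) through non-classical monocytes (1735 CPM) and NK cells (1724 CPM), whose intervals overlapped, to T cells (1401 CPM), B cells (930.2 CPM), classical monocytes (531 CPM), alveolar macrophages (497 CPM) and, last, neutrophils. The highest of the 10 larger classes stood 18.3-fold over the lowest in saline and 11.9-fold in NP cells. For H2-D1 the same quotient was 3.84-fold and 4.03-fold, and saline neutrophils (2500 CPM) and alveolar macrophages (2451 CPM) overlapped.

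B2m, which every class I molecule needs to fold, stood at 714 CPM in saline and 1214 CPM in NP neutrophils, a ratio of 0.77 (0.74 to 0.79). In general capillary endothelium it stood at 2145 and 3916 CPM (0.87, 0.82 to 0.92). The NP level was the higher one in both classes, with intervals that did not overlap. Its interval lay above 0 in 16 of 17 classes, and it was past 1.5-fold in 6. In saline cells B2m was highest in non-classical monocytes (3787 CPM), apart from aerocytes (3074 CPM), while T cells (1785 CPM), NK cells (1715 CPM), classical monocytes (1655 CPM) and alveolar macrophages (1653 CPM) overlapped with their neighbors in the order.

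The transporter subunits differed from each other. Tap1, the subunit next to Psmb9 in the genome, stood at 38.6 CPM in saline and 107 CPM in NP neutrophils (1.48, 1.39 to 1.56). It stood at 59.6 and 189 CPM in general capillary endothelium (1.67, 1.36 to 1.99) and at 59.7 and 125 CPM in classical monocytes (1.07, 0.93 to 1.20). Tap1 was therefore past 2-fold in the pooled values of each of these 3 classes. Within the neutrophil clusters its ratio ran from 0.37 to 0.93. It was past 1.5-fold in 8 of the 12 classes where it was measured. Among those were pericytes and mural cells, which reached 50 UMIs through NP cells (1 saline and 52 NP UMIs). In the classes under 50 UMIs it stood at -0.48 (interstitial macrophages), -0.26 (mesothelial cells), 0.41 (fibroblasts), 0.54 (basophils) and 2.16 (epithelial cells). Tap2 stood at 54.0 and 75.2 CPM in neutrophils (0.48, 0.39 to 0.57), at 48.3 and 68.9 CPM in classical monocytes (0.51, 0.36 to 0.67) and at 124 and 224 CPM in general capillary endothelium (0.86, 0.64 to 1.09). The Tap2 intervals lay above 0 in 6 of 13 classes, so its difference was seen in fewer classes than that of Tap1, without a test of the difference between them.

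Tapbp encodes tapasin, the chaperone that ties class I to the transporter, and it had the smallest ratio of the 10 members in neutrophils and in general capillary endothelium. It stood at 84.6 and 112 CPM in neutrophils (0.41, 0.33 to 0.48) and at 217 and 266 CPM in general capillary endothelium (0.30, 0.12 to 0.47). It was past 1.5-fold in 1 of 17 classes, the epithelial cells (0.89, 0.27 to 1.54), from 31 saline and 77 NP UMIs. In that class 39.6% of 2987 genes were higher by that fold. In saline cells of the larger classes, Tapbp was highest in alveolar macrophages (280.0 CPM), with 296 CPM in NP cells (0.08, -0.05 to 0.22).

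**Figure D2:**
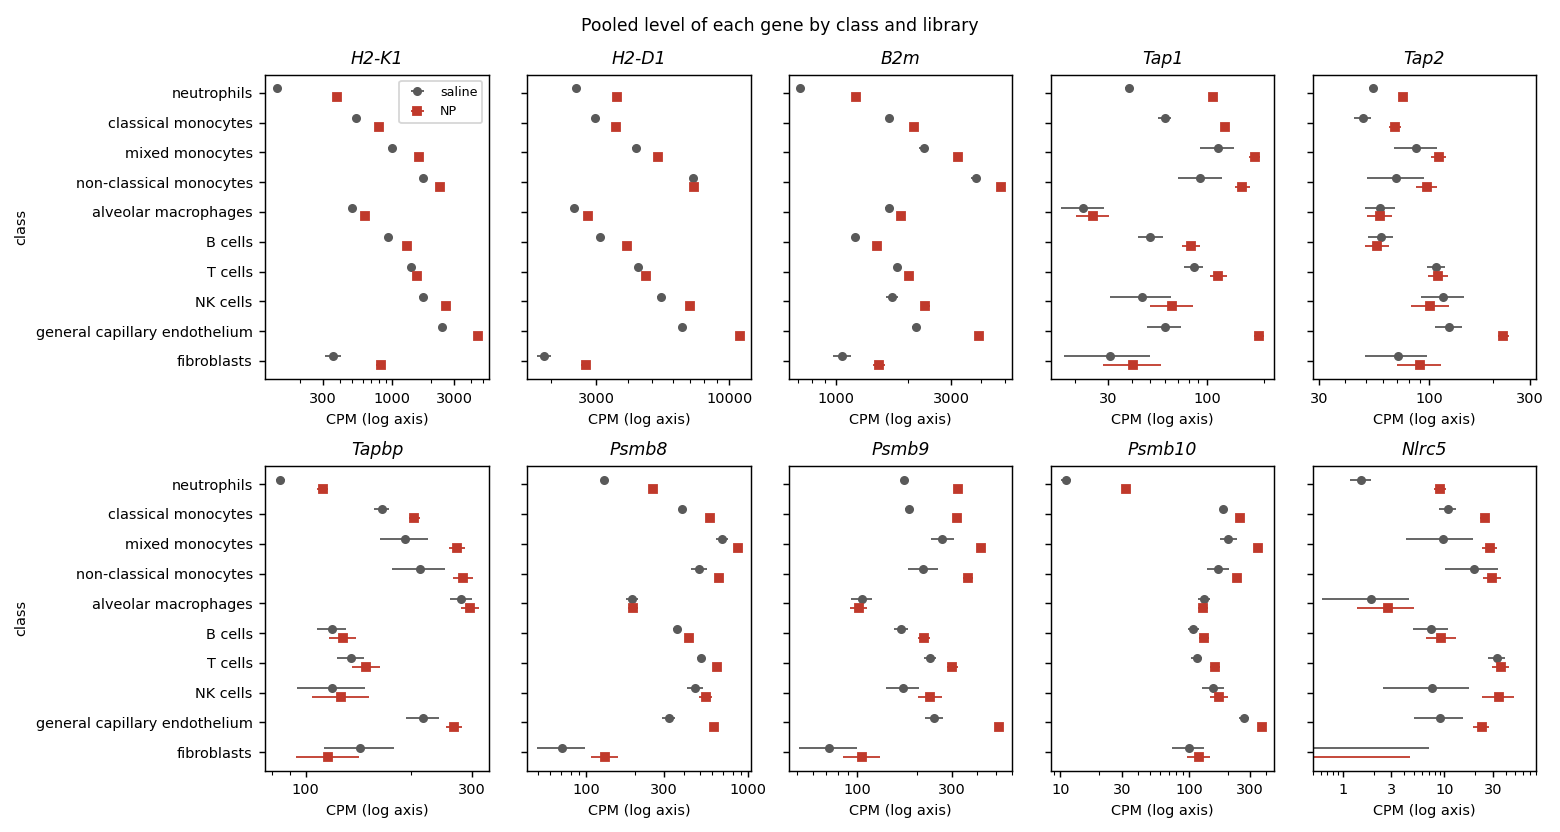
Pooled level of each member in CPM (log axis, own range for each gene) in the 10 classes with at least 50 cells per library, saline as gray circles and NP as red squares, with exact Poisson intervals as bars; Nlrc5 in fibroblasts had no UMI and shows bars only. Neutrophils hold the lowest level of H2-K1 and Psmb10 in both libraries, and the 2 libraries overlap for Psmb8, Psmb9 and Psmb10 in alveolar macrophages.

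The 3 catalytic immunoproteasome subunits were all higher in NP neutrophils, and Psmb10 had the largest ratio among them. Psmb8 (LMP7) stood at 128 and 258 CPM in saline and NP neutrophils (1.01, 0.96 to 1.06). Psmb9 (LMP2) stood at 173 and 321 CPM (0.89, 0.85 to 0.94). Psmb10 (MECL-1) stood at 11.03 and 32.3 CPM (1.55, 1.39 to 1.71). Neutrophils had the lowest Psmb10 level of the 17 classes in saline cells, apart from the next class, and the quotient of the highest over the lowest larger class was 24.4-fold in saline and 11.4-fold in NP cells. In general capillary endothelium Psmb9 went from 244 to 515 CPM (1.08, 0.92 to 1.24), Psmb8 from 321 to 612 CPM (0.93, 0.79 to 1.07) and Psmb10 from 269 to 368 CPM (0.45, 0.30 to 0.61), so Psmb10 was there the subunit with the smallest ratio.

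Each immunoproteasome subunit takes the place of 1 constitutive subunit, so the pair was also read as a share of its summed UMIs. Psmb8 made up 65.5% (64.5% to 66.5%) of the Psmb8 and Psmb5 UMIs in saline neutrophils and 81.5% (80.6% to 82.4%) in NP neutrophils. Psmb9 made up 78.5% and 89.3% of its pair with Psmb6. Psmb10 made up 24.3% (22.5% to 26.1%) and 49.1% (46.6% to 51.6%) of its pair with Psmb7. In neutrophils the constitutive partners were lower or close to level, at -0.21 for Psmb5, -0.30 for Psmb6 and -0.04 for Psmb7, so the shares differed mainly by the immunoproteasome subunits. UMI shares are not shares of assembled proteasomes.

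The same shares in general capillary endothelium were 63.1% and 77.6% for Psmb8, 54.1% and 71.2% for Psmb9, and 73.7% and 76.9% for Psmb10. The intervals of the Psmb10 shares overlapped there (69.9% to 77.3% and 75.2% to 78.5%). In classical monocytes the shares were 65.3% and 73.1% for Psmb8, 52.8% and 65.9% for Psmb9, and 64.7% and 71.0% for Psmb10. In alveolar macrophages they were 48.4% and 49.0%, 32.6% and 32.3%, and 60.3% and 58.1%, each pair of intervals overlapping.

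**Figure D3:**
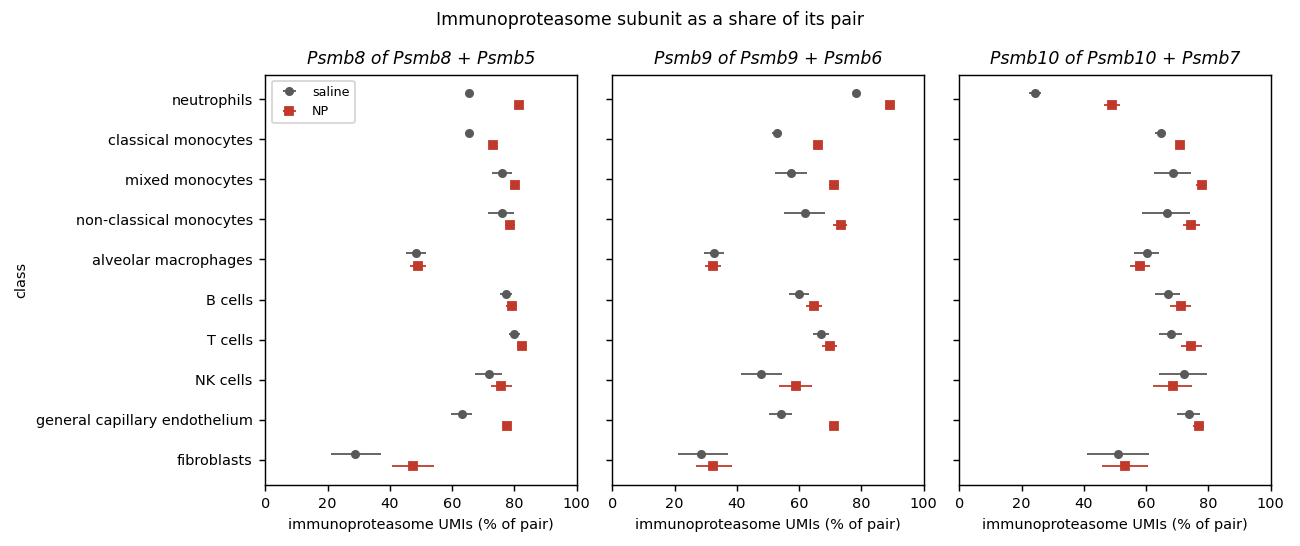
UMIs of each immunoproteasome subunit as a percent of its pair with the constitutive subunit (x axes from 0 to 100%), by class, saline as gray circles and NP as red squares, with exact binomial intervals. The shares in NP neutrophils lie right of the saline shares in all 3 panels, by the widest gap for Psmb10 (24.3% and 49.1%), and those of alveolar macrophages coincide.

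Nlrc5, which encodes a transactivator of class I genes, was sparse, with 371 saline and 1142 NP UMIs over the 17 classes. It stood at 1.501 CPM (72 UMIs) in saline and 9.11 CPM (219 UMIs) in NP neutrophils, a ratio of 2.602 (2.21 to 3.01). It stood at 10.7 and 24.9 CPM in classical monocytes (1.21, 0.90 to 1.54) and at 9.07 and 23.2 CPM in general capillary endothelium (1.36, 0.56 to 2.27). The pooled NP level was thus more than 2-fold higher in each of these classes, with wide intervals in endothelium. Within classical monocytes Nlrc5 was measured in 3 of 5 clusters, at 0.66 to 0.87, with intervals above 0 in 2. T cells had the highest saline level (32.7 CPM) and a ratio of 0.14 (-0.25 to 0.53), and their interval overlapped that of the next class, non-classical monocytes (19.5 CPM). Nlrc5 had no UMI in 6 saline classes, where the exact intervals end at 5.72 to 24.2 CPM, and it reached 50 UMIs in 7 of the 17 classes.

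Neutrophils were not uniform, and the pooled ratio of the class was larger than most ratios within its 8 clusters. Clusters c00, c01 and c02 held 3793 of the 5588 saline neutrophils, while c06, c09 and c10 held 1721 of the 3081 NP neutrophils. H2-K1 was past 1.5-fold in each of the 8 clusters, by 0.72 to 1.53. H2-D1 was higher by 0.27 to 0.56, Psmb9 by 0.26 to 0.63 and B2m by 0.16 to 0.66, with intervals above 0 in each of the 8. Tap1 was higher by 0.37 to 0.93 and Psmb8 by 0.19 to 0.60, each with intervals above 0 in 7 of the 8. Their pooled ratios, 1.48 and 1.01, lay above those of every cluster. Psmb10 ran from 0.13 to 1.67, with intervals above 0 in 4 of the 8. Tap2 ran from -0.24 to 0.71 and Tapbp from -0.20 to 0.30, with intervals above 0 in 1 and in 0 clusters. Nlrc5 was measured in 1 of the 8, c09, with 1 UMI in 72 saline cells and 124 UMIs in 715 NP cells. The median ratio of the members per cluster was between 0.19 and 0.65, under the pooled 0.95, and with equal weight for each cluster 4 members were past 1.5-fold in place of 7. With that weight H2-K1 stood at 0.93, Psmb10 at 0.88, Tap1 at 0.67 and Psmb8 at 0.42.

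The level of the members was then read beside interferon-responsive genes that are no members. Each neutrophil was thinned to 1000 UMIs, which left out 8 saline cells and 1 NP cell, and placed by its UMIs of 19 reference genes (among them Ifit1, Isg15, Rsad2, Gbp2 and Irgm1). Of 5580 saline neutrophils 3927 had 0 reference UMIs and 249 had 3 or more, and of 3080 NP neutrophils 1120 had 0 and 964 had 3 or more. In each library the levels of all 10 members were higher in cells with 3 or more reference UMIs than in cells with 0, with intervals that overlapped for Tap2 and Nlrc5 in saline cells. In saline cells H2-K1 went from 184 CPM at 0 to 545 CPM at 3 or more, and in NP cells from 318 to 988 CPM. These levels are from thinned cells and differ from the pooled ones above. The summed UMIs of the members per 1000 had a median of 4 in saline and 7 in NP neutrophils.

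Among neutrophils with 0 reference UMIs, part of the difference between libraries was still measured. A count of 0 in a thinned cell does not show that the reference genes were silent in that cell. Whether the cells of the 2 libraries in this range were alike in their reference genes was not tested. Psmb10 was higher by 0.95 (0.13 to 1.73), from 40 saline and 22 NP UMIs. H2-K1 was higher by 0.79 (0.60 to 0.98), Psmb8 by 0.44 (0.19 to 0.68), Psmb9 by 0.34 (0.12 to 0.55), B2m by 0.27 (0.18 to 0.37) and H2-D1 by 0.19 (0.13 to 0.24). Tap1 had 161 and 56 UMIs there (0.29, -0.18 to 0.73). Tap2 stood at 55.0 and 50.9 CPM (-0.11, -0.56 to 0.32) and Tapbp at 109 and 95.5 CPM (-0.19, -0.51 to 0.12). Nlrc5 had only 12 and 2 UMIs there (-0.78, -3.98 to 1.39). The intervals of Tap1, Tap2, Tapbp and Nlrc5 held 0. Among cells with 3 or more, the Psmb10 ratio was 1.52 (0.59 to 2.62; 10 and 111 UMIs), that of Tap2 1.18 (0.49 to 1.95), that of Psmb9 1.15 (0.81 to 1.498), that of Tap1 1.06 (0.56 to 1.59) and that of Psmb8 1.02 (0.69 to 1.35), while H2-K1 (0.86) was close to its value at 0. The top range has no upper end, and where cells of the 2 libraries lie within it was not compared.

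**Figure D4:**
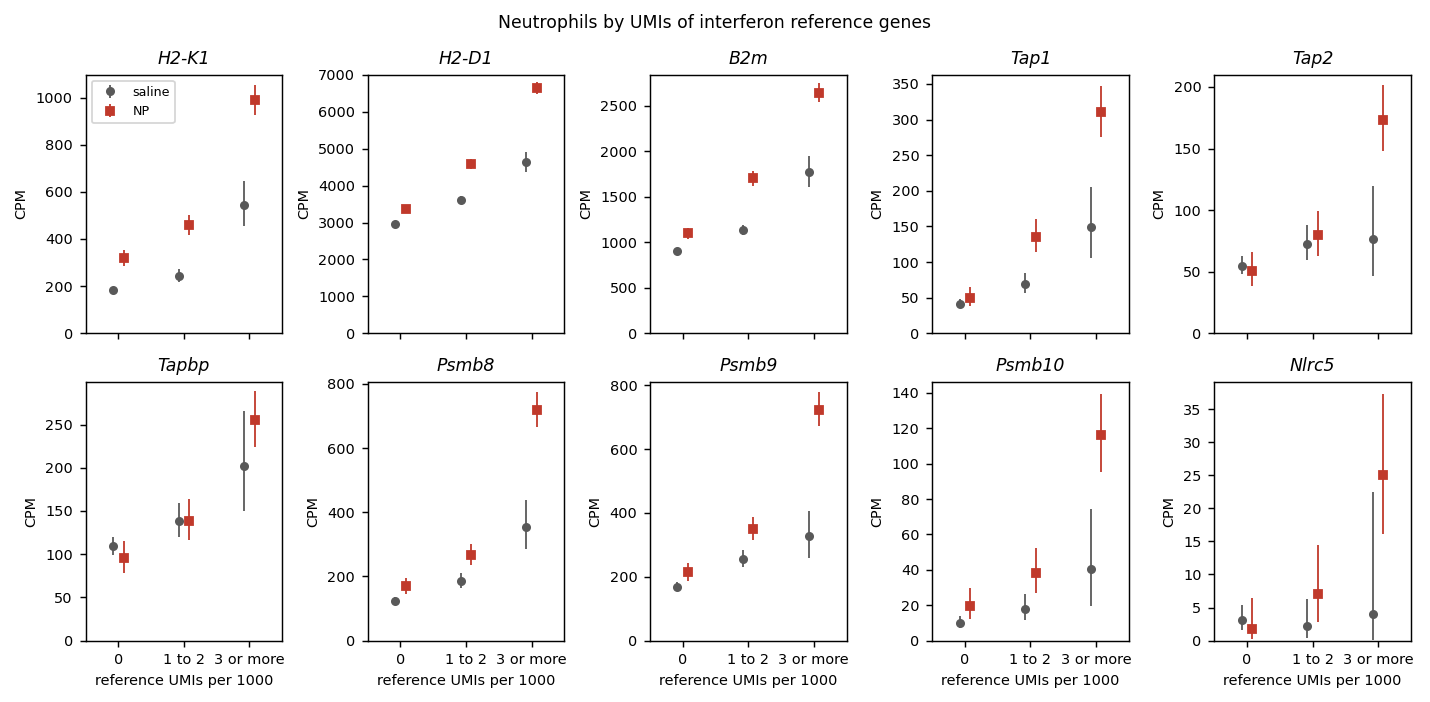
Level of each member (CPM, axes from 0) in neutrophils thinned to 1000 UMIs, by the number of UMIs from 19 interferon reference genes, saline as gray circles and NP as red squares, with exact Poisson intervals. Levels of all 10 members are higher at 3 or more than at 0 in both libraries. The 2 libraries are set apart at 0 for H2-K1 (184 and 318 CPM) but overlap for Tap1, Tap2, Tapbp, Psmb10 and Nlrc5.

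Classical monocytes had 4 of 10 members past 1.5-fold and none lower, against 3.01% of 9706 genes that were higher and 3.5% that were lower, with a median member ratio of 0.54. The 4 were Nlrc5, Tap1, Psmb9 (183 and 316 CPM, 0.79, 0.71 to 0.87) and H2-K1 (531 and 805 CPM, 0.60, 0.55 to 0.65). All 10 intervals lay above 0, and the median gene with at least 200 UMIs stood at -0.04. How many of all genes had such intervals was not counted. Cluster p00 held 423 of 635 saline cells of this class, and p02 and p05 held 561 of 799 NP cells; within the 5 clusters H2-K1 was higher by 0.52 to 1.21 and Tapbp ran from -0.05 to 0.44. Non-classical monocytes, patrolling cells of the vessel wall, had 3 of 10 members higher (8.45% of genes) and 0 lower (8.17% of genes), with H2-D1 at 7227 and 7306 CPM (0.02, -0.03 to 0.06). A monocyte cluster with both Ccr2 and class II genes among its leading genes, called mixed monocytes here, had 5 of 10 members higher (9.47% of genes) and 0 lower (7.41% of genes), but 322 of its 381 cells came from NP lungs.

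Lymphocytes differed less. B cells had 1 of 10 members past 1.5-fold (3.26% of genes) and 0 lower (4.89% of genes), Tap1 at 50.1 and 82.4 CPM (0.72, 0.45 to 0.99). A B cell cluster of 52 saline and 48 NP cells had Camp and Ngp, which are neutrophil genes, among its leading genes. Its median member ratio was 0.82, against 0.21 in the other B cell cluster. The median gene with at least 200 UMIs stood at -0.02 and -0.03 in these clusters, in the same order. The share of all genes past 1.5-fold is not given per cluster. The first cluster was singled out after its values were seen. All 12 neutrophil markers were found in B cells, with summed levels of 36658 CPM in saline and 22408 CPM in NP cells, and without cells over 1% S100a8 and S100a9 UMIs the Tap1 ratio was 0.71. T cells had 0 of 10 members higher (4.39% of genes) or lower (3.85% of genes), with ratios from 0.04 for Tap2 to 0.47 for Psmb10. NK cells had 1 of 9 higher (4.76% of genes) and 0 lower (7.04% of genes), H2-K1 at 1724 and 2586 CPM (0.59, 0.48 to 0.69), which is at the mark itself. Summed neutrophil markers were 19760 and 11182 CPM in T cells and 13041 and 20648 CPM in NK cells, saline first. Without cells over 1% S100a8 and S100a9 UMIs the counts were 0 of 10 and 1 of 9. The share of all genes past the mark is not given for that setting.

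Both kinds of lung capillary cell had most members higher. General capillary cells were described above, with Psmb10 and Tapbp as the 2 members under 1.5-fold, and both of their clusters had H2-K1 higher, by 0.86 and 1.01. Aerocytes, the capillary cells specialized for gas exchange, had 7 of 9 members higher (10.6% of genes) and 0 lower (6.52% of genes) with 32 saline and 153 NP cells. Tap1 stood there at 37.2 CPM (8 UMIs) and 197 CPM (217 UMIs), a ratio of 2.41 (1.41 to 3.64), and H2-D1 at 8671 and 15391 CPM (0.83, 0.76 to 0.90). All 12 neutrophil markers were found in general capillary cells of both libraries, with summed levels of 13977 CPM in saline and 4488 CPM in NP. In aerocytes the sums were 11629 and 4747 CPM. Without cells that had over 1% of their UMIs from S100a8 and S100a9, 8 of 10 members were past 1.5-fold in general capillary cells, with a median of 0.84. In aerocytes 7 of 9 were. The share of all genes past the mark is not given for this setting, so these counts have no background.

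Pericytes and mural cells, which wrap small vessels, had 8 of 9 members higher, but 24.2% of their 3114 genes were also higher (6.97% were lower), and there were 32 saline and 117 NP cells. The class joins clusters c25 (20 saline and 59 NP cells) and c27 (12 and 58). Cluster c25 scored 4.33 for this class and 4.17 for fibroblasts, and only 3 members were measured in it. The median gene with at least 200 UMIs stood at 0.10 in c25 and 0.46 in c27. H2-K1 stood at 345 CPM (61 UMIs) and 1606 CPM (1133 UMIs), a ratio of 2.22 (1.85 to 2.61), and Psmb8 at 56.6 CPM (10 UMIs) and 238 CPM (168 UMIs), 2.07 (1.16 to 3.16). Tap1 had 1 saline UMI and 52 NP UMIs, a ratio of 3.70 (1.16 to 9.03), so it counted as measured through its NP count. The summed neutrophil markers of this class were 115550 CPM in saline and 17475 CPM in NP cells, with all 12 markers found in both. The 8 general capillary markers, all found in both, summed to 1199 and 3166 CPM, and their part in the result was not tested. Without cells over 1% S100a8 and S100a9 UMIs, 3 saline and 4 NP cells fewer, 7 of 8 members were past 1.5-fold. Their median was 1.29 and H2-K1 stood at 1.89. The share of all genes past the mark is not given for this setting, so this count has no background.

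In the other classes the members were measured with fewer cells. Fibroblasts had 2 of 8 members higher (7.34% of genes) and 0 lower (6.7% of genes), H2-K1 (357 and 824 CPM, 1.21, 0.97 to 1.45) and Psmb8 (70.7 and 130 CPM, 0.87, 0.32 to 1.46); Psmb8 was at -0.12 when each cell had equal weight, and with a mitochondrial limit of 5% no member was past the mark. In fibroblasts the 8 general capillary markers, all found in both libraries, summed to 260 CPM in saline and 806 CPM in NP cells, and the 12 neutrophil markers to 6402 and 8712 CPM, and their part in the result was not tested. Epithelial cells had 4 of 7 higher, but 39.6% of 2987 genes were higher too (3.25% were lower) and the median number of detected genes was 1292 in saline and 3874.5 in NP cells. Basophils had 3 of 6 higher (7.69% of genes) and 0 lower (10.3% of genes), with H2-K1 at 276 and 765 CPM (1.47, 1.01 to 1.96). Their summed neutrophil markers were 20219 CPM in saline and 4507 CPM in NP cells (Ltf at 0), and without cells over 1% S100a8 and S100a9 UMIs the H2-K1 ratio was 1.83. Plasmacytoid dendritic cells had 0 of 8 higher (8.65% of genes) or lower (6.22% of genes). Interstitial macrophages had 0 of 7 higher (8.86% of genes) and 1 lower (11.2% of genes), Psmb9 at 131 and 82.2 CPM (-0.68, -1.48 to 0.18). Mesothelial cells had 0 of 8 higher (7.52% of genes) and 1 lower (14.3% of genes). This was Tap2, at 145 CPM (58 UMIs) and 62.7 CPM (6 UMIs), a ratio of -1.21 (-2.72 to -0.004).

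Of 48 other genes of the class I pathway, 45 were measured in neutrophils, and 12 of them were past 1.5-fold and none was lower, where 5.98% of all genes were higher and 7.93% lower. They include 7 of 9 non-classical class I and class I-like genes. H2-Q6 stood at 0.959 and 10.8 CPM (3.49, 3.03 to 3.98) and H2-Q7 at 2.33 and 14.3 CPM (2.62, 2.30 to 2.94), with the limit on H2 reads given above. None of 14 constitutive proteasome genes was past the mark, with a median of -0.18, and the lowest ratios were Psma4 (-0.38), Canx (calnexin, -0.38) and Psmb2 (-0.30). Of the PA28 activator, Psme2 was at 0.76 (0.68 to 0.83) and Psme1 at 0.44 (0.37 to 0.51). Irf1, an interferon-induced transcription factor, stood at 109 and 328 CPM (1.59, 1.54 to 1.64).

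In general capillary endothelium 47 of the 48 were measured and 10 were higher and 0 lower (4.22% and 6.12% of all genes), among them 8 of 10 non-classical and class I-like genes and Irf1 (0.68, 0.49 to 0.87). None of the 14 constitutive proteasome genes was past the mark there either. Over all monocytes the ratios of H2-Q7 (2.00) and H2-Q6 (1.76) were among the highest of the list, and the lowest were Rfxap (-0.36), Creb1 (-0.13) and Psmb3 (-0.13). These values pool the 3 monocyte classes, which made up 635, 59 and 91 saline cells and 799, 322 and 355 NP cells (classical, mixed, non-classical), so they carry that difference in makeup. Within classical monocytes H2-Q6 stood at 1.65 (1.29 to 2.03) and H2-Q7 at 1.57 (1.27 to 1.87).

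Over the 20 points of the 10 larger classes in 2 libraries, genes with the most similar level to each member were listed among 11264 genes, as a description, since the points share library, depth and tissue. H2-K1 was most similar to H2-Q6 (Pearson r = 0.95), H2-Q7 (0.93) and Tapbpl (0.93), a tapasin relative, and H2-D1 to Tapbpl (0.89), H2-K1 (0.88) and Jak3 (0.88). B2m was most similar to Tapbpl (0.90), with Acsl5 (0.84) also near. Tap1 was most similar to its neighbor Psmb9 (0.94), then to Parp14 (0.90), and Psmb9 to Tap1 and then to Parp14 (0.87). Tap2 was closest to Gbp4 (0.89), Gm11127 (0.88) and H2-Q4 (0.83), and Tapbp to Sdc3 (0.91), Ggta1 (0.91) and Znfx1 (0.90). Psmb8 was most similar to Psme1 (0.91), Phf11b (0.88) and Sp110 (0.86), Psmb10 to Fxr1 (0.93), Mrpl52 (0.92) and Psmg4 (0.91), and Nlrc5 to Psmb8 (0.86), Zc3hav1 (0.83) and Clint1 (0.82).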

How the data were processed

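Cell Ranger was used by the authors to align reads and count UMIs, and the deposited values are raw counts (UMIs) per gene and barcode; the labels name version 6.0 and build mm10 with bcl2fastq, while the matrix headers name Cell Ranger 4. From these counts, cells were kept by the limits given in the report, brought to 10000 UMIs each and put on a log scale. The members were left out, and the 2000 genes with the most variance gave 30 principal components and a graph of 20 neighbors, clustered by Leiden at resolution 1, and mononuclear phagocytes were clustered again. Clusters of 30 or more cells were named from marker lists by a rule set after the clusters were seen. Doublets were kept in the main result. Scrublet marked 1 saline cell (0.0115%), so it did not work there, and 311 NP cells (3.73%). The members and lists were chosen with earlier results of these data known.

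Levels are pooled CPM with exact Poisson intervals, shares carry exact binomial (Clopper-Pearson) intervals, and ratios carry exact conditional intervals, with a count of 0 set to 3 in a ratio. Named genes are the members, Psmb5, Psmb6, Psmb7, Psme1, Psme2 and Irf1, the 3 highest and 3 lowest other pathway genes (200 UMIs or more) in neutrophils and monocytes, and the 3 genes most similar to each member on log2(CPM + 10); some genes under this rule are not reported here. No test was possible with 1 library per condition. On simulated counts the intervals held the true ratio for 95.6% of 9536 neutrophil genes and 95.5% of 9417 endothelial genes. The simulated counts were drawn from the Poisson model that the intervals assume, without variation between cells, animals or libraries. Their coverage therefore checks the calculation only. RefSeq matched 8 members with a promoter, and 99.6% of gene identifiers were found in GENCODE vM21. Alternatives covered cell limits, doublets, clustering, cell and cluster weights, scaling, free RNA and the fold. Clustering ran in scikit-learn 1.9.0 and leidenalg 0.10.2 (igraph 0.11.9), and intervals in scipy 1.17.1, with Scrublet from scanpy 1.11.5, under Python 3.11.15, with pandas 2.3.3, numpy 2.4.6 and, for plots, matplotlib 3.10.9.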

Additional observations from a re-analysis of the deposited data

Results flagged for a closer look

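Tap2 differed in opposite directions between small classes. It stood at 1.00 (0.05 to 2.12) in pericytes and mural cells and at -1.21 (-2.72 to -0.004) in mesothelial cells. These were the highest and lowest ratios over the 13 classes where Tap2 was measured. The mesothelial value came from 58 UMIs in 36 saline cells and 6 UMIs in 13 NP cells. The pericyte value came from 10 saline and 80 NP UMIs. In c27, the only cluster of that class where Tap2 was measured, it stood at 0.84 (-0.22 to 2.12). Of all measured genes, 24.2% were at least 1.5-fold higher in pericytes and mural cells, and 14.3% were lower by that fold in mesothelial cells. The difference between the classes was not tested.

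Barcodes with under 50 UMIs, which were not kept as cells and served to estimate free RNA, had all 10 members at least 1.5-fold higher in the NP library, by 0.67 for Tap2 to 1.94 for Nlrc5 on the log2 scale. In these barcodes 27.0% of 8530 genes were higher by that fold, 2.78% were lower, and the median gene stood at 0.31. H2-K1 stood there at 362 and 1021 CPM. The share of such RNA in each larger class was estimated from the 1 gene of other cell types that gave the lowest value. These estimates ran from 0 to 0.983% of UMIs. In saline NK cells the estimate was 0 (from Hba-a1), while the 12 neutrophil markers summed to 13041 CPM there. The estimates may therefore be too low, and the source of those marker UMIs was not tested. The barcodes under 50 UMIs were not split by cell type, and the makeup of the kept cells differed between libraries. Neutrophils made up 5588 of 8662 saline and 3081 of 8333 NP cells. The ratios in these barcodes can carry that difference, which was not tested.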

How the results depend on the processing

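No paired analysis was possible because each condition had 1 library and the labels carry no replicate numbers, and for the same reason no library could be left out. Counts of members past 1.5-fold stayed within 1.5 times of the main count except as follows. Neutrophils had 4 in place of 7 with equal weight per cluster. Classical monocytes had 4, which became 7 at resolution 0.5 and 7 with 4000 variable genes. Non-classical monocytes had 3, which became 6 when cells were classed 1 by 1 from their own marker scores. Alveolar macrophages had 0, which became 1 with 4000 variable genes. B cells had 1, which became 2 with a mitochondrial limit of 5% and 3 with equal weight per cluster. NK cells had 1, which became 0 with a limit of 5%, 4000 variable genes, own marker scores, equal weight per cell or 1 shared doublet threshold. Fibroblasts had 2, which became 5 with a minimum of 200 detected genes, 1 with a higher minimum, 0 with a limit of 5%, 1 with predicted doublets removed, 1 with the shared threshold, 4 without cells over 1% S100a8 and S100a9, and 4 with own marker scores. With a fold of 2, the counts were 3 in general capillary endothelium, 2 in classical monocytes, 1 in mixed monocytes, 0 in non-classical monocytes, 0 in B cells, 0 in NK cells and 1 in fibroblasts. The share of all genes past the mark is not given for the alternatives of this paragraph, so these counts have no background. Psmb8 in fibroblasts reversed to -0.12 with equal weight per cell. Apart from construction (a higher fold), the causes were not tested. The class of mixed monocytes was not found, and has no value, at resolution 0.5, with 4000 variable genes, with predicted doublets removed or with own marker scores. The shared doublet threshold and the S100a8 and S100a9 limit were chosen after seeing the data. Subtracting free RNA moved the 100 ratios of 10 members in 10 classes by -0.03 to 0.0028. The size of this shift rests on the estimates of free RNA given above, which may be too low. Counts of Nlrc5 limit what can be said outside 7 classes.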
